A study of Rattus norvegicus with 4 samples.

Results

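The genes described here are 40 rat genes of the cell division cycle: 15 that copy DNA or supply its building blocks, 4 cyclins and kinases of the G1 phase, and 21 that act in G2 and mitosis. They were taken by symbol, through the RefSeq transcript that each array probe targets, and 38 of the 40 had a probe among the 16575 named genes of the array. Top2a, a DNA topoisomerase, and Mcm5, a subunit of the replicative helicase, had no named probe, so no signal is described for them. Both are still counted among the promoter windows below. The RNA came from NR8383, a line of alveolar macrophages that grows in culture and was derived from lung lavage of a normal rat. All 4 samples belong to 1 group: cells at 20 passages, cultured for 48 h and given multi-walled carbon nanotubes of the type NRCWE006 for 4 h at a dose of 1 cm2/cm2. Control cells, which the study's design also names, are not analysed here, and none of the values below is an effect of exposure. The values describe which of these genes gave a signal in exposed cultures and how far 4 biological replicates of the same condition differed.

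Cells enter S phase when G1 cyclins with their kinases release E2F transcription factors from retinoblastoma proteins. E2F factors then switch on the genes of the MCM helicase, primase, the clamp and its loader, and the enzymes that make deoxynucleotides. Genes of G2 and mitosis are switched on later, through promoters that carry a short element called the CHR (cell cycle genes homology region) and CCAAT boxes bound by the factor NF-Y. Alveolar macrophages in the lung mostly rest between divisions, whereas NR8383 was established as a line that keeps dividing. RNA was measured from whole cultures, so fewer cells in a cycle phase and less RNA per cell cannot be told apart.

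Each array held 58717 gene spots of 45598 probes, of which 1350 probes were printed 10 times. A probe counted as detected when over 50% of its usable spots were well above background, by the scanner software's flag, on each of the 4 arrays; above background means that flag throughout. By this rule 3208 probes (7.04%) were detected, and 1945 of 16413 named genes measured on all arrays (11.9%). Replicate 4 stood apart from the other arrays: 656 of its spots were marked as non-uniform against 9 to 34 elsewhere. Its negative controls had a median signal of 4.65 against 2.98 to 3.36. It also had the highest count of probes above background, 6476, where replicates 1, 2 and 3 had 5722, 4745 and 4252. The 75th percentile of the signal over detected probes was 384, 281, 236 and 223 on replicates 1 to 4. The level of a gene is the log2 of its signal minus the log2 of that percentile, so 0 is the percentile itself, and levels are compared between arrays but not between genes. Of 10 macrophage markers, Cd68, Lyz2, Spi1, Fcgr1a and Aif1 were detected, with mean levels of -3.53 ± 0.61, 2.50 ± 0.11, -3.14 ± 0.73, -0.71 ± 0.15 and -2.25 ± 0.12 (SD, n = 4). The macrophage genes Csf1r, Mrc1, Itgam and Adgre1 were above background on no array. Of 17 markers of epithelium, fibroblasts, lymphocytes and granulocytes with a probe, 0 were detected on all arrays, and 1 was above background on some.

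Of the 38 genes with a probe, 21 were detected (55.3%), 10 were above background on 1 to 3 arrays and 7 on none. The list was proposed with results of these arrays in view, so its share stands beside the 11.9% of all named genes as a description only. Among the replication genes 10 of 14 were detected: Mcm2, Mcm3, Mcm7, Prim1, Rfc3, Rpa2, Fen1, Tk1, Rrm1 and Rrm2. Mcm4 was above background on 1 array, and Mcm6, Pcna and Tyms on none. Among the G1 genes, Cdk4 was detected, Ccnd1 and Ccne1 were above background on 3 arrays, and Cdk2 on 1. Among the mitotic genes 10 of 20 were detected: Ccnb2, Cdk1, Cdca3, Plk1, Bub3, Ube2c, Tacc3, Stmn1, Tubb5 and Kmt5a. Ccna2, Ccnb1, Birc5 and Cks2 were above background on 3 arrays, Aurka and Cks1b on 2, and Cdc20, Aurkb, Bub1 and Mki67 on none.

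**Figure D1:**
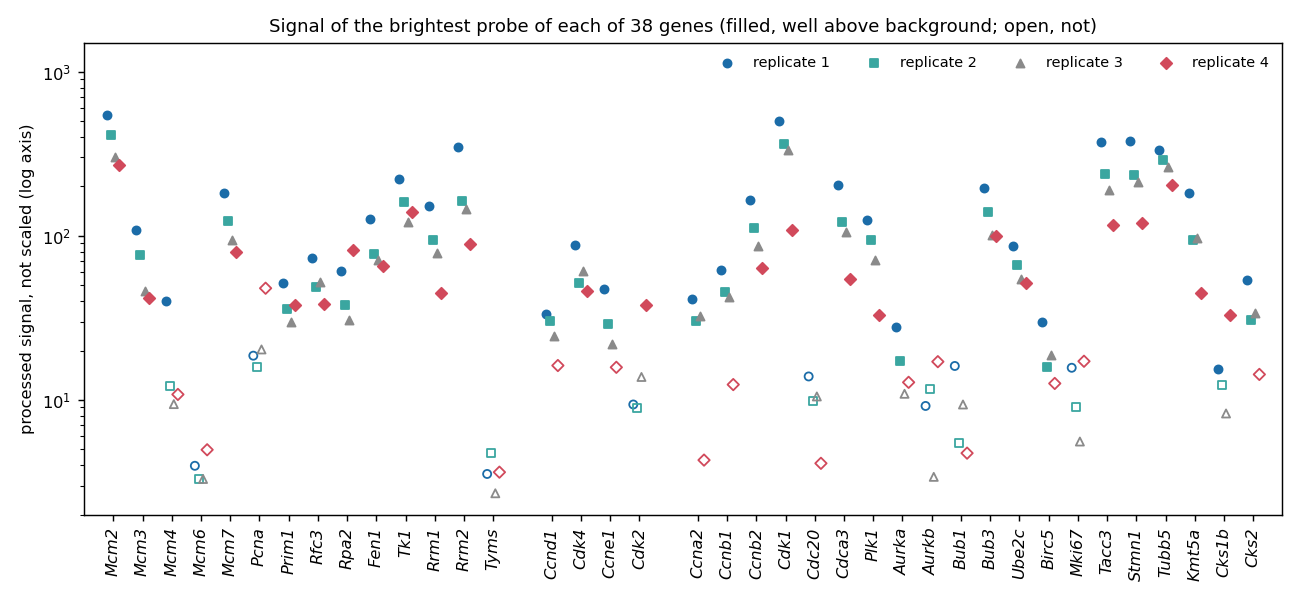
Processed signal (logarithmic axis, arbitrary scanner units, not scaled between arrays) of 1 probe for each of the 38 genes (the brightest of those above background on most arrays) on each of the 4 arrays; filled points are well above background and open points are not. The replication, G1 and mitotic genes are grouped along the horizontal axis, and 21 genes are filled on all 4 arrays.

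Probes of the same gene often disagreed on whether it was detected. Of 11 detected cell cycle genes with more than 1 probe, 7 had a further probe that was above background on no array (Mcm3, Rrm1, Rrm2, Stmn1, Tacc3, Tk1 and Ube2c), against 272 of 581 such genes on the whole array. Rrm1 shows the size of this gap: its probe printed 10 times gave signals of 151, 94.1, 78.9 and 44.9 on replicates 1 to 4, and its other probe gave 3.56, 3.05, 2.72 and 5.28. Pcna, the sliding clamp of DNA polymerase, was read by 1 probe with 2 spots, at 18.6, 15.9, 20.3 and 47.9; on replicate 4, 1 of the 2 spots was well above background. Mki67, a protein of dividing nuclei widely used as a proliferation marker, was well above background on no array with any of its 4 probes. Its probe printed 10 times gave 10.1, 6.46, 6.09 and 4.19, and its brightest probe gave 15.7, 9.01, 5.58 and 17.2.

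The promoters of the genes were read from RefSeq (build GRCr8) as windows of 300 bases, from 250 before to 50 after the gene's start. A window was given for 34 of the 40 genes and not for Mcm4, Rrm2, Ccnd1, Ccna2, Aurkb and Ube2c. Each window was searched on both strands for an E2F core (TTCCCGC or TTGGCGC or TTCGCGC or TTGCCGC), for the CHR (TTTGAA) and for CCAAT, and matches may overlap. The following 6 windows show 3 helicase genes and 3 mitotic genes that are described below. They are printed 5′ to 3′ on the strand of the gene, with every match in capitals. They lie at chr4:122918045-122918344 (minus strand), chr9:30733697-30733996 (minus strand), chr12:22163129-22163428 (minus strand), chr20:19265043-19265342 (plus strand), chr1:186147408-186147707 (plus strand) and chr8:79981609-79981908 (minus strand).
Mcm2: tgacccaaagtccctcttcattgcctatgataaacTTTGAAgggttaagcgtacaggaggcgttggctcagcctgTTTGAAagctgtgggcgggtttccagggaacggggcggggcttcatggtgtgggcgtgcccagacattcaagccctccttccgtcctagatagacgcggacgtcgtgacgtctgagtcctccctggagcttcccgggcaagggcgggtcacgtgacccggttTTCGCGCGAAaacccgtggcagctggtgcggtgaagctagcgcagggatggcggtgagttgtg
Mcm3: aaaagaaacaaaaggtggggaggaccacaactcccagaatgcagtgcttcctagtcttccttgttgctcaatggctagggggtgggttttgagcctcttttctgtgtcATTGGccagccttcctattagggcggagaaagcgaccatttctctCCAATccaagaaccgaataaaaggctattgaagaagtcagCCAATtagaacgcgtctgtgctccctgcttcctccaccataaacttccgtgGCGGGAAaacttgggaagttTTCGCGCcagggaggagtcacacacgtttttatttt
Mcm7: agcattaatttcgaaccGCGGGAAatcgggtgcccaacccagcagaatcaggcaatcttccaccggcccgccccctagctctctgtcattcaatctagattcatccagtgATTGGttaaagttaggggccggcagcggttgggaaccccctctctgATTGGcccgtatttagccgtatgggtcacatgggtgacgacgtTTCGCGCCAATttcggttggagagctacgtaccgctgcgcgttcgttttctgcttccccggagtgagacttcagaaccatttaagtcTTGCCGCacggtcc
Cdk1: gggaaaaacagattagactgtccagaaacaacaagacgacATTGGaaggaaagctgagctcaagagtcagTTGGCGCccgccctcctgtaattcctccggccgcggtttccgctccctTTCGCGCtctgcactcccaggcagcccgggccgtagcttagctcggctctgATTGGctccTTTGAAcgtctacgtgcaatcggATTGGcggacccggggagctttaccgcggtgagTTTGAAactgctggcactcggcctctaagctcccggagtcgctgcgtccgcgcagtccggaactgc
Plk1: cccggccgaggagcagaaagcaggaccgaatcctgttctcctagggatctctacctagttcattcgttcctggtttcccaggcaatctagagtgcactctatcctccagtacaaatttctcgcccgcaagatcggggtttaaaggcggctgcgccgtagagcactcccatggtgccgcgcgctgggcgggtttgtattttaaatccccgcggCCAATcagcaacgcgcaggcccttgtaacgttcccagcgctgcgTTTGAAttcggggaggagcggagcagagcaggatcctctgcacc
Ccnb2: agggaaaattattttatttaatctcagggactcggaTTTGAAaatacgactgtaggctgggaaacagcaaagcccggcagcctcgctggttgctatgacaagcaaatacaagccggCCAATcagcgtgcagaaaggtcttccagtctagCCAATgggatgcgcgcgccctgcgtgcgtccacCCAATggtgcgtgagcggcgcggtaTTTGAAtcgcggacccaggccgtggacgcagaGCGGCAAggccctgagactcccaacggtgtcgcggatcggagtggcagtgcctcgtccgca

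The Mcm2 window held 2 E2F cores that overlap and 2 CHR matches, with 0 CCAAT boxes. The Mcm3 window held 2 E2F cores and 3 CCAAT boxes, and the Mcm7 window held 4 and 3, with 3 overlapping pairs among its matches. The Cdk1 window held all 3 kinds, with 2 E2F cores, 2 CHR matches and 3 CCAAT boxes. Ccnb2 held 1 E2F core, 2 CHR matches and 3 CCAAT boxes, and Plk1 held 1 CHR match and 1 CCAAT box.

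Replication and mitotic genes differed in which letters their windows carried. An E2F core was found in 11 of 13 replication windows (84.6%) and in 5 of 18 mitotic windows (27.8%), beside 9.52% of all 33469 windows and 19.8% of the 1728 windows of detected genes. The CHR was found in 1 of 13 replication windows (7.69%) and in 10 of 18 mitotic windows (55.6%), beside 18.3% of all windows and 10.5% of those of detected genes. CCAAT was found in 9 of 13 (69.2%) and in 16 of 18 (88.9%), beside 37.5% and 41.3%. Further genes of each process, taken from textbook lists, gave an E2F core in 23 of 38 replication windows (60.5%) and in 11.8% of 34 mitotic windows, and the CHR in 15.8% and 70.6%. A match is a run of letters and was not tested as a binding site.

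**Figure D2:**
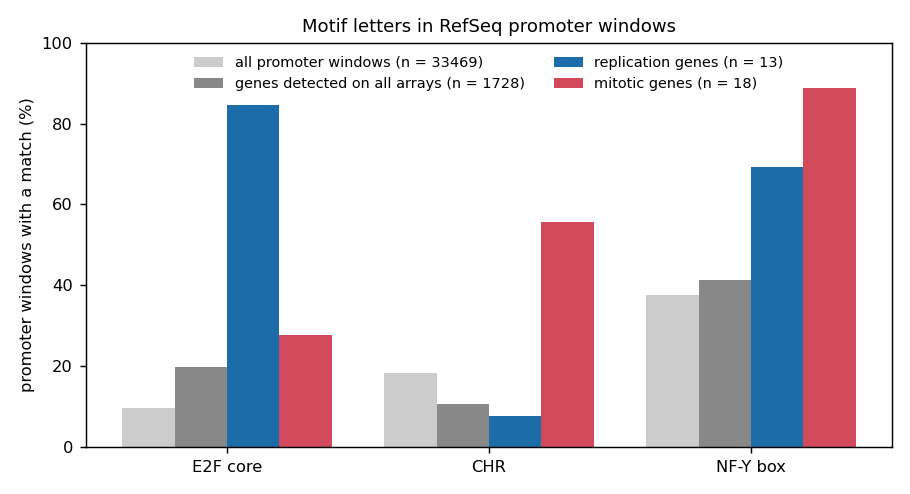
Share of promoter windows of 300 bases (vertical axis, percent) that hold an E2F core, a CHR or a CCAAT box, for all 33469 RefSeq windows, the 1728 of detected genes, the 13 of replication genes and the 18 of mitotic genes. The E2F core is most frequent in the replication genes (84.6%), and the CHR and CCAAT in the mitotic genes (55.6% and 88.9%).

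Of the helicase subunits, Mcm2, Mcm3 and Mcm7 were detected on every array. Mcm2 had levels of 0.51, 0.55, 0.35 and 0.27 on replicates 1 to 4 (mean 0.42 ± 0.13, SD, n = 4), from signals of 546, 411, 301 and 269. Mcm3 had levels of -1.82, -1.87, -2.34 and -2.41 (mean -2.11 ± 0.31). Mcm7 had levels of -1.09, -1.20, -1.32 and -1.48 (mean -1.27 ± 0.17). In all 3 genes replicate 4 was the lowest array, but its spots overlapped those of the other arrays. The 6 usable spots of Mcm3 on replicate 4 ran from -2.72 to -2.18 in level, and its 9 spots on replicate 3 ran from -3.61 to -1.54. The 10 spots of Mcm7 ran from -1.56 to -0.64 on replicate 1 and from -2.22 to -0.63 on replicate 4.

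Spots of the same probe repeat the measurement within an array, so a moderated F test over arrays (limma, spots as repeats) asks whether arrays differ by more than the spot noise. It compares arrays, each 1 culture and 1 hybridisation, and says nothing about exposure. It called 1093 of 1350 probes (81.0%) at an adjusted p below 0.05, and 529 of the 709 that were detected (74.6%). The detected cell cycle genes gave 11 calls in 12 probes, a share near that background, so a call alone is not a result about these genes. Mcm2, Mcm3 and Mcm7 had adjusted p-values of 0.00018, 0.017 and 0.049. These calls were lost after a different background correction (normexp), with adjusted p-values of 0.18, 0.66 and 0.86, and the p-values over all alternatives ran from 8e-28, 1.9e-11 and 2.2e-17 up to those values. Mcm7 was not called either without replicate 1, 3 or 4, at adjusted p-values of 0.18, 0.059 and 0.092. With spots carrying an outlier flag kept, Mcm3 and Mcm7 were not called, at adjusted p-values of 0.086 and 0.14. A second probe of Mcm2, printed once, gave -2.13, -2.06, -3.78 and -2.18, with replicate 3 lowest, so the 2 probes do not place the same array at the bottom. Mcm4 gave 39.8, 12.2, 9.43 and 10.8 in signal on its brightest probe, above background on replicate 1, and Mcm6 gave 3.97, 3.31, 3.30 and 4.97.

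Of the other genes that act at the replication fork, Prim1, Rfc3 and Fen1 had SDs of 0.11 to 0.20 and Rpa2 one of 0.70. Prim1 and Rfc3, like Rpa2, were read from 1 spot on each array, and Fen1 from a probe printed 10 times. Prim1, the small subunit of the primase, had levels of -2.90, -2.97, -2.98 and -2.56 (mean -2.85 ± 0.20, n = 4). Rfc3, part of the complex that loads the sliding clamp, had levels of -2.40, -2.52, -2.18 and -2.53 (mean -2.41 ± 0.17). Rfc3 was at nearly the same level on replicates 2 and 4, and Prim1 was highest on replicate 4. Fen1, the nuclease that trims the flaps of Okazaki fragments, had levels of -1.59, -1.86, -1.72 and -1.78 (mean -1.74 ± 0.11). Its 10 spots on replicate 4 ran from -2.22 to -0.97 in level, past both ends of the range on replicate 2 (-2.20 to -1.60). The moderated F test in limma gave an adjusted p of 0.19, with 0.0086 without replicate 4 and a range of 7.3e-17 to 0.70 over the alternatives. Rpa2, a subunit of the protein that coats single-stranded DNA, had levels of -2.65, -2.90, -2.95 and -1.45 (mean -2.49 ± 0.70) from 1 spot on each array, and replicate 4 was the highest array by 1.39 over the mean of the others.

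The deoxynucleotide enzymes split. Tk1, the thymidine kinase of S phase, kept levels of -0.79, -0.80, -0.95 and -0.68 (mean -0.81 ± 0.11, n = 4). It was read from a probe with 2 spots, and replicate 4 was again the highest array. Both subunits of ribonucleotide reductase were lowest there. Rrm1, the large subunit, had levels of -1.35, -1.58, -1.58 and -2.31 (mean -1.70 ± 0.42). Rrm2, the small subunit whose amount follows S phase, had levels of -0.15, -0.78, -0.71 and -1.33 (mean -0.74 ± 0.48). The spots of Rrm2 separated 2 arrays: all 10 on replicate 1 (levels of -0.34 to 0.01) lay above every spot of the other arrays, and all 9 on replicate 4 (-1.84 to -1.03) lay below. Limma's moderated F test gave adjusted p-values of 2.8e-12 for Rrm1 and 3.9e-14 for Rrm2, and both were called under every alternative run. Tyms, the thymidylate synthase, gave 3.54, 4.76, 2.70 and 3.63 in signal.

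Of the G1 genes, 1 of 4 was detected on all arrays. Cdk4, the kinase partner of D-type cyclins, had levels of -2.13, -2.46, -1.96 and -2.27 (mean -2.20 ± 0.21, n = 4). It was read from a probe with 2 spots, and replicate 2 was lowest. Ccnd1, cyclin D1, gave 33.3, 30.1, 24.5 and 16.2 in signal on its brighter probe, above background on replicates 1 to 3. On its probe printed 10 times the number of spots above background went from 10 of 10 on replicate 1 to 7 of 10, 5 of 10 and 0 of 8 on replicates 2, 3 and 4. All 8 of those spots on replicate 4 (levels of -5.65 to -5.11) lay below every spot of the other arrays, of which the lowest was at -4.71. Ccne1, cyclin E1, gave 47.4, 29.0, 21.9 and 15.8 and was above background on replicates 1 to 3. Cdk2, its kinase partner, went the other way, with 9.38, 8.88, 13.8 and 37.6, and was above background on replicate 4 alone, from 1 spot.

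Among the mitotic kinases and cyclins detected on all arrays, Cdk1, Plk1 and Ccnb2 were each lowest on replicate 4. Cdk1, whose activity with B-type cyclins starts mitosis, had signals of 497, 363, 332 and 108 and levels of 0.37, 0.37, 0.49 and -1.05 (mean 0.05 ± 0.73, n = 4). Replicates 1 to 3 were close together, and replicate 4 deviated from their mean by -1.46. The 9 usable spots of Cdk1 on replicate 4 ran from -1.36 to -0.81 in level, and the lowest spot on any other array was at 0.13. Plk1, the polo-like kinase of the spindle and centrosome, had levels of -1.63, -1.58, -1.73 and -2.77 (mean -1.93 ± 0.56), and 8 of its 10 spots on replicate 4 were above background. Ccnb2, a B-type cyclin that pairs with Cdk1, had levels of -1.23, -1.32, -1.45 and -1.82 (mean -1.45 ± 0.26) on a probe with 2 spots. The moderated F test (limma) gave adjusted p-values of 4e-21 for Cdk1 and 2.9e-10 for Plk1; without replicate 4 they were 0.25 and 0.24, the highest of the alternatives, which began at 6.6e-32 and 4.5e-22. The difference between arrays in these 2 kinases therefore rests on replicate 4.

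The cyclins Ccna2 and Ccnb1 were both lowest on replicate 4. Ccna2, cyclin A2, gave 41.1, 30.4, 32.3 and 4.30, and on replicate 4 it was close to the negative controls. Ccnb1, cyclin B1, gave 61.5, 45.3, 42.1 and 12.4. Cks2, a small subunit of cyclin-dependent kinases, gave 53.6, 30.7, 34.0 and 14.3, and Birc5 (survivin), of the chromosomal passenger complex, gave 30.0, 15.9, 18.9 and 12.6. All 4 genes were above background on replicates 1 to 3 and not on replicate 4. Of 14 mitotic genes above background on replicates 1 to 3, 4 were missed on replicate 4 (28.6%), against 0 of 10 replication genes and 19.5% of all 2443 such genes. Over all the cell cycle genes it was 6 of 27 (22.2%), near that background. These misses fell on the array with the most probes above background (6476 against 4252 to 5722), and the reason was not tested. Among further genes of these pathways, described below, 4 of 8 replication genes and 1 of 6 mitotic genes were missed on replicate 4. The contrast between mitotic and replication genes was thus not seen in them. Aurka, the aurora A kinase, gave 27.7, 17.3, 10.9 and 12.8 and was above background on replicates 1 and 2. Cks1b gave 15.5, 12.3, 8.27 and 32.9 on the probe called most often, above background on replicates 1 and 4. Aurkb, Bub1 and Cdc20, which act in chromosome segregation, gave at most 17.1, 16.1 and 13.9 on any array.

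Genes of the checkpoint and of mitotic protein turnover divided into steady and variable ones. Bub3, a spindle checkpoint protein, had levels of -0.97, -1.01, -1.22 and -1.16 (mean -1.09 ± 0.12, n = 4). Ube2c, the ubiquitin-conjugating enzyme of the anaphase-promoting complex, had levels of -2.14, -2.08, -2.11 and -2.12 (mean -2.11 ± 0.03). It was the steadiest of the 21, on a probe with 2 spots. Cdca3, which takes part in the destruction of the mitosis inhibitor Wee1, had levels of -0.92, -1.22, -1.16 and -2.04 (mean -1.33 ± 0.49). Its 10 spots on replicate 4 ran from -2.46 to -1.51 in level, and the lowest spot elsewhere was at -1.45. Limma's moderated F test gave an adjusted p of 7.9e-13 for Cdca3, which was called under every alternative run. Bub3 had an adjusted p of 0.0086, which became 0.17 with normexp and 0.14 without replicate 3 (range over the alternatives 1.1e-22 to 0.17).

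Of the spindle genes, Tacc3 and Stmn1 were lower on replicate 4, and Tubb5 differed less. Tacc3, a spindle protein that stabilises microtubules, had levels of -0.05, -0.23, -0.31 and -0.93 (mean -0.38 ± 0.38, n = 4; limma's moderated F test, adjusted p = 7.9e-11). Stmn1, stathmin, which takes microtubules apart, had levels of -0.02, -0.26, -0.15 and -0.89 (mean -0.33 ± 0.38) from 1 spot. Tubb5, a beta-tubulin found in most cells, had levels of -0.21, 0.05, 0.15 and -0.14 (mean -0.04 ± 0.17) from 1 spot. Replicate 1 was its lowest array. A second detected probe, with 2 spots, gave -0.30, -0.54, -0.35 and -0.58, with replicate 4 lowest. Kmt5a, the methyltransferase of histone H4 lysine 20, had levels of -1.07, -1.58, -1.28 and -2.31 (mean -1.56 ± 0.54; limma's moderated F test, adjusted p = 1.1e-16) on its probe printed 10 times. Its 9 spots on replicate 4 (levels of -2.56 to -2.08) lay below every other spot. A probe for another transcript of Kmt5a, printed once, went the opposite way with -2.89, -2.82, -3.13 and -0.96, and one more probe was above background on replicate 4 alone, so the direction of Kmt5a on replicate 4 depends on the probe.

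**Figure D3:**
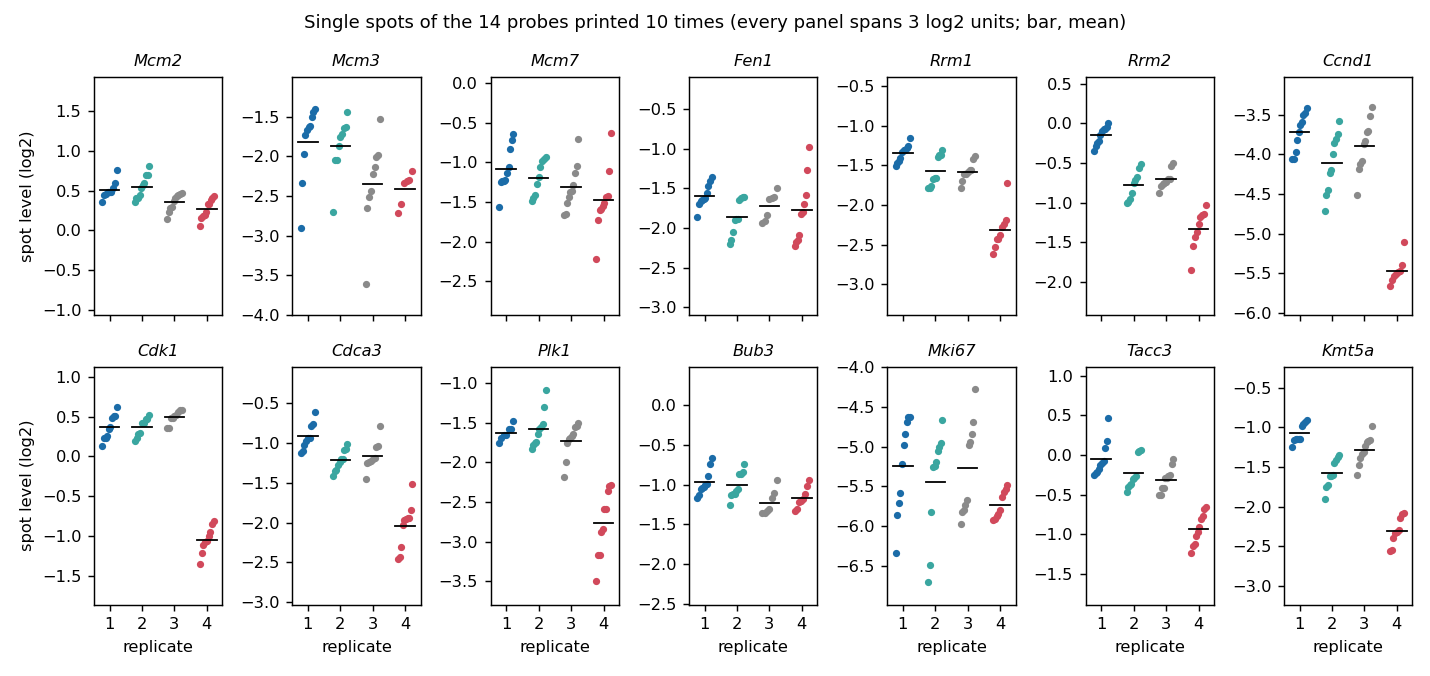
Level of each single usable spot (log2 of signal minus log2 of the array's 75th percentile, vertical axis) of the 14 probes printed 10 times, by replicate; each panel spans 3 log2 units and each bar is the mean of the array's spots. The spots of replicate 4 are separate from all others for Cdk1, Cdca3, Plk1, Tacc3, Kmt5a, Rrm2 and Ccnd1, and overlap them for Mcm2, Mcm3, Mcm7, Fen1, Rrm1, Bub3 and Mki67.

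The spots printed 10 times also show where arrays separated without overlap. On replicate 4 all spots lay below every spot of the other arrays for 6 of the 12 detected probes printed 10 times (50.0%), against 23 of 709 detected probes (3.24%). The 6 were Cdk1, Cdca3, Plk1, Tacc3 and Kmt5a among 6 mitotic probes (83.3%), and Rrm2 among 6 replication probes (16.7%). For Kmt5a another detected probe, printed once, was highest on replicate 4. The genes were proposed with levels of these arrays known, so the contrast is a description and was not tested. On replicate 1 the same count was 0 for these probes and 4 over the whole array. On replicate 4, 10 of the 709 probes (1.41%) lay above every other spot, and none of the 12 did.

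The spread over arrays of the mitotic and the replication genes depended on replicate 4 and on the scaling. The median SD over the 4 arrays was 0.38 for 10 mitotic genes and 0.18 for 10 replication genes, beside 0.24 for all 1945 detected genes. Without replicate 4 both medians were 0.16, and with quantile normalization they were 0.45 and 0.42. Levels ranged over more than 2-fold for 6 of the 21 genes (28.6%), namely Rpa2, Rrm2, Cdk1, Cdca3, Plk1 and Kmt5a, against 297 of 1945 (15.3%). Without replicate 4 the count was 0 of 27, against 3.66% of all genes detected on the other arrays.

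As a deviation from the mean of the other 3 arrays, replicate 4 had a median of -0.74 over the mitotic genes and -0.18 over the replication genes, beside -0.07 over all detected genes. Replicates 1, 2 and 3 had medians of 0.40, 0.13 and 0.24 for the mitotic genes and 0.16, -0.02 and -0.08 for the replication genes. Each of these is set against a mean that includes replicate 4. Without replicate 4 the mitotic medians, relative to all detected genes, were 0.10, -0.02 and 0.01, against 0.35, 0.13 and 0.23 with it. Those of the replication genes were 0.14, -0.02 and -0.18, against 0.11, -0.02 and -0.08. The lowest mitotic values on replicate 4 were -1.46 for Cdk1, -1.12 for Plk1, -1.0 for Kmt5a and -0.94 for Cdca3, past the 5th percentile of all genes (-0.77). Stmn1 and Tacc3 followed at -0.74 and -0.73, and Ccnb2 at -0.48. The value of Kmt5a is from its brightest probe, and its other detected probe was highest on replicate 4. Tubb5 (-0.13), Bub3 (-0.10) and Ube2c (-0.01) were within the middle of all genes, whose 25th and 75th percentiles were -0.36 and 0.24. Among the replication genes Rrm1 (-0.81) and Rrm2 (-0.78) also passed the 5th percentile, Mcm3 was at -0.40, and Rpa2 at 1.39 was beyond the 95th percentile (1.07). Replicate 4 was the lowest array for 13 of the 21 genes (61.9%), against 39.6% of all detected genes.

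The low mitotic values moved with an array that also had more non-uniform spots, brighter negative controls and more probes above background. The part of these in the result was not tested. Non-uniform spots had been left out, and with all spots kept the mitotic median on replicate 4, relative to all genes, was -0.68 beside -0.67. The shift of all genes on replicate 4 depended on the processing. It was -1.64 with a percentile over all probes, 0.08 with normexp and 0.81 without a filter on dim probes. Relative to it, the mitotic median stayed between -0.42 and -0.73 under every alternative run except the one without a filter on dim probes (-1.47). Mitotic genes with a CHR in their window (Ccnb2, Cdk1, Plk1 and Tacc3) had a median deviation of -0.93 on replicate 4, and the 5 with a window that lacked it had -0.74, with overlapping ranges of -1.46 to -0.48 and -1.0 to -0.10.

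**Figure D4:**
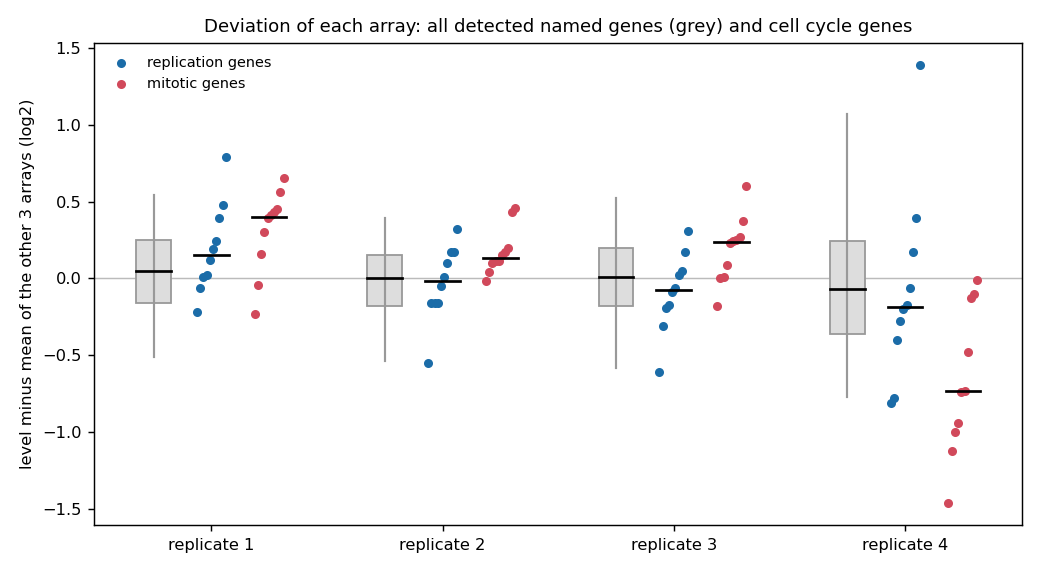
Level on each array minus the mean of the other 3 arrays (log2, vertical axis) for the detected replication and mitotic genes (points, black line at their median) beside all 1945 detected genes (grey: line at the median, box from the 25th to the 75th percentile, whiskers from the 5th to the 95th). On replicate 4 the mitotic genes reach from -1.46 to -0.01 and the replication genes from -0.81 to 1.39.

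Further genes of the same pathways, taken whole from textbook lists, gave 11 detected of 99 with a probe (11.1%) against 11.9% of all named genes, and 18 of 99 (18.2%) against 14.8% without replicate 4. Of 38 further replication genes 4 were detected (10.5%). Gins1 and Gins4, of the complex that activates the helicase, had levels of -2.22, -2.03, -2.46 and -2.63, and -3.57, -3.85, -3.09 and -3.10. Pold2, a subunit of DNA polymerase delta, had -1.82, -1.78, -2.01 and -2.26, and Orc1, of the origin recognition complex, was above background on no array. Of 31 further mitotic genes 5 were detected (16.1%). Foxm1, a transcription factor of mitotic genes, had levels of -2.71, -2.90, -2.88 and -2.93, and replicate 4 differed from the lowest of the others by less than their spread. Kif20a, a kinesin of cytokinesis, had -0.53, -0.33, -0.32 and -0.96, with replicate 4 lowest, and Espl1, separase, had -1.90, -1.86, -3.10 and -2.78, with replicate 3 lowest. Ccnf was above background on no array.

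Of 30 further genes of cell cycle control 2 were detected (6.67%), and E2f3 was above background on no array. E2f1, an activator of replication genes, had levels of -2.24, -2.60, -2.87 and -2.71. Cdkn1a, the kinase inhibitor p21, had signals of 271, 215, 192 and 420 and levels of -0.50, -0.39, -0.30 and 0.91 (mean -0.07 ± 0.66, n = 4; limma's moderated F test, adjusted p = 3.9e-20). Replicate 4 was its highest array, the one on which Cdk1 and Plk1 were lowest. The 4 further replication genes and 5 further mitotic genes had median deviations of -0.39 and -0.50 on replicate 4. All detected genes had -0.07 there, and the replication and mitotic genes of the main list had -0.18 and -0.74.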

How the data were processed

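Total RNA (100 ng, RNA integrity number above 7.5, per the labels) was labelled with Cy3 and hybridised to 1-colour Agilent arrays, 1 for each of 4 replicates of 1 group. The deposited files hold each spot's intensity, background-subtracted by Agilent Feature Extraction 11.0.1.1 per the file headers and the submitters' processing notes. Its 75th percentile differed between arrays, so the intensities were scaled here. The spot flags were used as deposited. Probe positions were not used, because the design build named in the headers differs from GRCr8.

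Control spots (4259 per array) and spots with an outlier flag were left out. Intensities became log2 values, averaged over the spots of a probe, minus the log2 of the array's 75th percentile over detected probes. These log2 levels were computed from the intensities the authors deposited. A gene took its brightest detected probe, and other detected probes are reported where they differ. Probe transcripts were matched without version to RefSeq symbols, which named 21102 of 45598 probes (16575 genes).

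The moderated F test (limma 3.58.1 in R 4.3.3) ran on all 1350 probes with at least 3 spots, with Benjamini-Hochberg adjustment and a threshold of 0.05, and was tested on simulated data. Its p-values measure noise between spots, not between cultures. Precision is limited by the 4 arrays. Summaries used Python 3.11.15 with pandas 2.3.3.

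Every gene of the list is named with its calls, and every detected one with its 4 levels. Of each pathway list the first 3 detected genes and the first gene above background on no array are named, and all detected markers. The genes and lists were chosen with earlier results of these data known. The alternatives were other background corrections, scalings, detection rules, spot filters and probe choices, and leaving out each replicate. Those for the pathway lists were chosen after seeing the data.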

Additional observations from a re-analysis of the deposited data

Results flagged for a closer look

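For 36 detected genes with a value on each of the 4 arrays, the gap between the most extreme array and its nearest neighbour was divided by the whole range and set against Dixon's critical value. Of these, 4 passed. Chance passes about 1 in 20 independent groups, but these genes share the same arrays and were chosen with earlier results known. The count is therefore a description and not a test. In all 4 genes that passed, the extreme array was replicate 4. Cdk1 was lowest there with a ratio of 0.919, at a level of -1.05 beside 0.37 to 0.49 elsewhere. Plk1 was lowest there with a ratio of 0.877, at -2.77 beside -1.73 to -1.58. Cdkn1a, which encodes p21, was highest there with a ratio of 0.855, at 0.91 beside -0.50 to -0.30. Spi1, a transcription factor of macrophages measured by 1 spot, was highest there with a ratio of 0.904, at -2.05 beside -3.58 to -3.44. Cdk1, Plk1 and Cdkn1a were each read from 10 spots an array. Replicate 4 was also the array with the most non-uniform spots, the brightest negative controls and the most probes above background. Their part in these values was not tested.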

How the results depend on the processing

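No paired analysis was possible because there is 1 group. The replication median on replicate 2, near 0, changed its sign with normexp (0.02), with quantile normalization (0.02) and without replicate 1 (0.09). The count of genes ranging over more than 2-fold was 6 of 21 (all genes 15.3%). It was 1 of 21 with normexp (all 2.01%) and 20 of 21 with the percentile over all probes (all 92.8%). With quantile normalization it was 11 of 21 (all 39.9%), and without scaling 13 of 21 (all 52.8%). Without a filter on dim probes it was 18 of 38 (all 72.5%). With 1 replicate left out it was 0 to 6, where 0 was without replicate 4 (of 27, all 3.66%). Under the same first 5 settings the median SD of all the cell cycle genes (0.26) was 0.16, 0.95, 0.48, 0.58 and 0.42, and 0.16 to 0.30 with 1 replicate left out. For the replication genes (0.18) it was 0.12, 0.89, 0.42, 0.49 and 0.36, and 0.16 to 0.22. For the mitotic genes (0.38) it was 0.22 with normexp, 1.17 with the percentile over all probes and 0.69 without scaling, 0.45 with quantile normalization, and 0.16 to 0.46 with 1 replicate left out. Without the filter on dim probes, the median deviations relative to all genes were 0.86, 0.48 and -1.06 on replicates 1, 2 and 4 for all the cell cycle genes (0.20, 0.10 and -0.21 with it), 0.69, 0.28 and -0.92 for the replication genes (0.11, -0.02 and -0.11), and 1.02 and -1.47 on replicates 1 and 4 for the mitotic genes (0.35 and -0.67). That setting adds genes that were not detected, and the all-gene median that the deviations are set against moved with it. This median was -0.62, -0.38 and 0.81 on replicates 1, 2 and 4, against 0.05, 0.00 and -0.07 with the filter. The median level of the cell cycle genes (-1.45) was -1.05 with normexp, 4.19 with the percentile over all probes, 6.57 with quantile normalization, 6.65 without scaling, -0.96 for genes detected on at least 3 arrays and -1.52 to -0.91 with 1 replicate left out; the scalings change the zero of the scale by construction. Of the cell cycle genes, 30 of 38 were detected against negative controls, and 27 on at least 3 arrays or without replicate 4. The count of detected pathway genes (11 of 99) was 26 against negative controls (26.3%, all named genes 20.3%), 20 on at least 3 arrays (20.2%, all 15.5%), and 11 to 18 with 1 replicate left out (18.2% without replicate 4, all 14.8%). Apart from those constructions, the cause of these changes was not tested. Signal near background limits the genes that were not detected.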

Other observations

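Outside the cell cycle genes, the probes whose spots on replicate 4 all lay below every spot of the other arrays included Lig1, the DNA ligase of replication, at -0.93, -1.05, -1.23 and -1.64. They also included 2 genes of lipid synthesis, Acly (-1.20, -1.51, -1.45 and -2.25) and Msmo1 (-1.32, -1.48, -1.65 and -2.57), and Rpn1 and Rpn2, subunits of the complex that attaches sugars to new proteins. Rpn1 had levels of 1.28, 0.98, 1.17 and 0.59, and Rpn2 had -0.51, -0.48, -0.55 and -1.18. Gpx1, a glutathione peroxidase, met this on 2 probes, with -0.81 and -0.95 on replicate 4 beside -0.17 to 0.32 elsewhere. These genes were chosen after their values were seen.

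Of further replication genes above background on replicates 1 to 3, Cdc45, Pold1, Rpa3 and Chaf1b were missed on replicate 4 (4 of 8), beside 0 of the 10 replication genes of the main list and 19.5% of all 2443 named genes above background on those arrays. Nusap1 was missed there among further mitotic genes (1 of 6), and Ccnd2 and Myc among the control genes (2 of 4), beside the same 19.5%.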
